A study of Homo sapiens with 6 samples.

Results

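The 9 genes described here encode proteins at the cell membrane and at cell junctions that feed into the Hippo pathway: the angiomotins *AMOT* and *AMOTL1*, the giant cadherins *FAT1* and *FAT4*, the FAT4 ligand gene *DCHS1*, the kinase gene *TAOK1*, the tight junction scaffold gene *TJP1*, and the polarity genes *SCRIB* and *LLGL1*. They were taken by gene name from the 58735 genes of the deposited count and FPKM tables. RNA was measured in H2452 cells, an established human pleural mesothelioma line, in 3 sgCtrl libraries (genotype WT, carrying a scrambled control sgRNA) and 3 sg*NF2*-1 libraries (genotype *NF2*-KO, carrying an sgRNA against *NF2*). Both groups received the same type of lentivirus, which expresses Cas9 and the mCherry reporter from an SFFV promoter, and both are sorted populations from 1 cell line that the sources do not describe as clones. No further treatment was applied, and the medium was RPMI-1640 with 10% fetal bovine serum. The labels do not state whether the replicates were separate cultures, so the p-values measure only the spread between these libraries.

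In the Hippo pathway, a kinase cascade (MST and LATS) phosphorylates the coactivators YAP and TAZ and keeps them out of the nucleus, where they would bind TEAD transcription factors. NF2 (merlin), the product of the targeted gene, links the membrane to this cascade. Angiomotins bind NF2, actin and YAP at junctions, FAT cadherins and their Dachsous ligands signal between neighbouring cells, TAO kinases phosphorylate MST, and the tight junction and Scribble scaffolds organise the apical and basolateral membrane of epithelial and mesothelial cells.

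The guide that separates the groups is shown first because every comparison rests on it, with the 3 bases on the PAM side of the expected Cas9 cut in capitals:
NF2 sgRNA 1: cgagatggagttcaattGCG
It matched 1 position in the annotated *NF2* transcripts, chr22:29604091-29604110 (GRCh38, plus strand), in the coding part of exon 1. *NF2* (ENSG00000186575) had 1162, 1197 and 1025 counts in sgCtrl and 692, 802 and 590 in sg*NF2*-1. The groups were separate, with a log2 fold change of -0.69 (SE 0.101, adjusted p = 7.9e-06, edgeR). Total counts ranged from 14782423 to 17416463 per library, and 14179 genes passed the filter on low counts. The first principal component held 57.8% of the variance and separated the groups. Of 9 keratin and mesothelial markers 8 passed the filter, with *KRT8* at 24397 to 32147 counts and *CALB2* (calretinin) at 40 to 74, whereas *KRT5* had 0 to 3 counts. Their summed level was 3264 to 3680 CPM in sgCtrl and 2862 to 3514 CPM in sg*NF2*-1. CPM is the count relative to the TMM-scaled total of the library. The 6 markers of other cell types summed to 6.39 to 8.04 CPM in sgCtrl and 1.62 to 2.50 in sg*NF2*-1. *PTPRC* was at 0 in every library, *CD3E* was at 0 in all but 1 library, and *PECAM1*, a surface protein of endothelial cells, gave most of the sgCtrl sum with 83 to 117 counts in sgCtrl and 16 to 26 in sg*NF2*-1.

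Of the 9 genes, 8 passed the filter and 4 of these were called at an adjusted p under 0.05, with *SCRIB* and *TJP1* higher and *AMOT* and *FAT4* lower in sg*NF2*-1. Over all tested genes, 17.7% were called higher and 16.6% lower. The same 4 genes had groups that did not overlap in CPM, which was true of 45.3% of all tested genes. Under a p below 0.05 with a log2 fold change beyond 0.5, *SCRIB* was the 1 gene called higher and *AMOT* and *FAT4* the 2 called lower, against 9.22% and 10.8% of all tested genes. The median log2 fold change of the 8 genes was -0.038, beside -0.0025 over all tested genes. In a two-sided exact permutation test of log2 CPM, each of the 4 called genes had p = 0.10, the smallest that 3 libraries against 3 allow. *PECAM1*, whose CPM was 6.31 ± 0.830 in sgCtrl and 1.296 ± 0.337 in the knockout libraries (SD, n = 3), was lower together with *AMOT* and *FAT4*, whereas the other 5 markers of its list summed to 0.914 to 1.02 CPM and to 0.492 to 1.42 CPM, with the endothelial *VWF* at 0 to 2 counts. Of the 8 tested mesothelial markers, 3 were lower, with log2 fold changes of -1.28 for *PDPN* (adjusted p = 8.3e-10, edgeR), -1.04 for *WT1* (6.8e-05) and -0.94 for *KRT19* (3.6e-08), and 2 were higher, *MSLN* at 0.66 (1.7e-05) and *KRT18* at 0.28 (0.017). The part of these markers in the results was not tested. Because these are bulk libraries, fewer cells expressing a gene and less RNA per cell cannot be told apart.

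**Figure D1:**
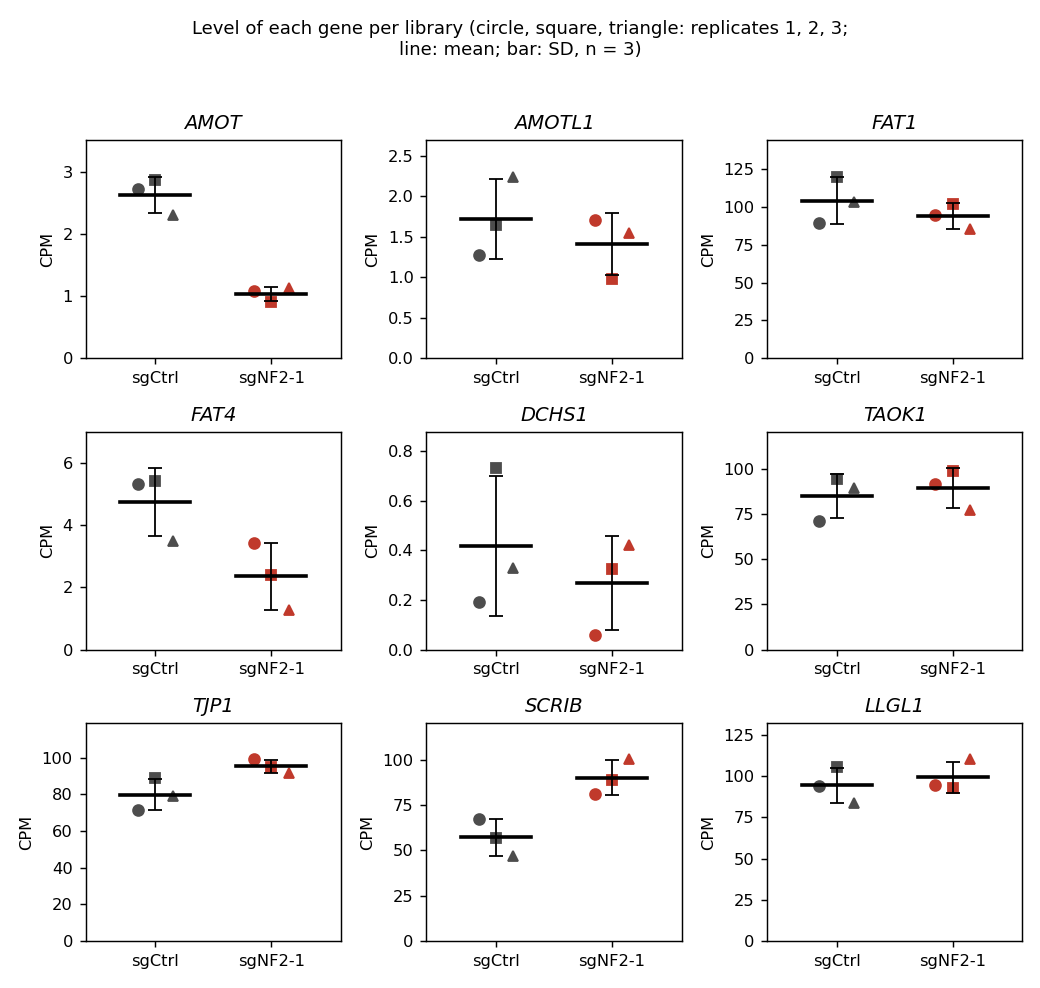
CPM of the 9 genes in each library (y axes start at 0, sgCtrl in grey, sg*NF2*-1 in red, lines are means and bars SDs over 3 libraries). The groups do not overlap for *AMOT*, *FAT4*, *TJP1* and *SCRIB* and overlap for the remaining 5 genes.

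Compared per length, as FPKM, the 9 genes fell into a well-expressed and a barely expressed set. In sgCtrl, *LLGL1* had the highest level at 13.5 ± 1.57 FPKM (SD, n = 3), followed by *SCRIB* at 8.74 ± 1.58, *TJP1* at 6.72 ± 0.733, *FAT1* at 6.11 ± 0.908 and *TAOK1* at 4.75 ± 0.682. The range of *LLGL1* lay above that of *SCRIB*, whereas *SCRIB*, *TJP1* and *FAT1* each overlapped with the next in the order. *TAOK1* was separate from *AMOT*, the next below it. *AMOT* at 0.293 ± 0.0328, *FAT4* at 0.274 ± 0.0631 and *AMOTL1* at 0.162 ± 0.0461 FPKM formed the next step, in which neighbours again overlapped. *DCHS1* was last at 0.0367 ± 0.0248 FPKM. Among the tested genes, the FPKM of the first 5 was between the 54.5 and the 77.7 percentile in sgCtrl, and that of *AMOT*, *FAT4* and *AMOTL1* between the 2.94 and the 7.54 percentile.

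In sg*NF2*-1 the first 5 places and the last were held by the same genes, and the overlaps differed. *SCRIB*, at 13.6 ± 1.45 FPKM (SD, n = 3), overlapped with *LLGL1* at 14.0 ± 1.33 and was separate from *TJP1* at 7.94 ± 0.312. *TJP1* in turn no longer overlapped with *FAT1* at 5.47 ± 0.4998. *AMOT*, first of the low set in sgCtrl, was at 0.114 ± 0.0124 FPKM in sg*NF2*-1, where its mean was below *FAT4* at 0.135 ± 0.0613 and *AMOTL1* at 0.132 ± 0.0358, although these 3 ranges overlapped from one neighbour to the next.

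**Figure D2:**
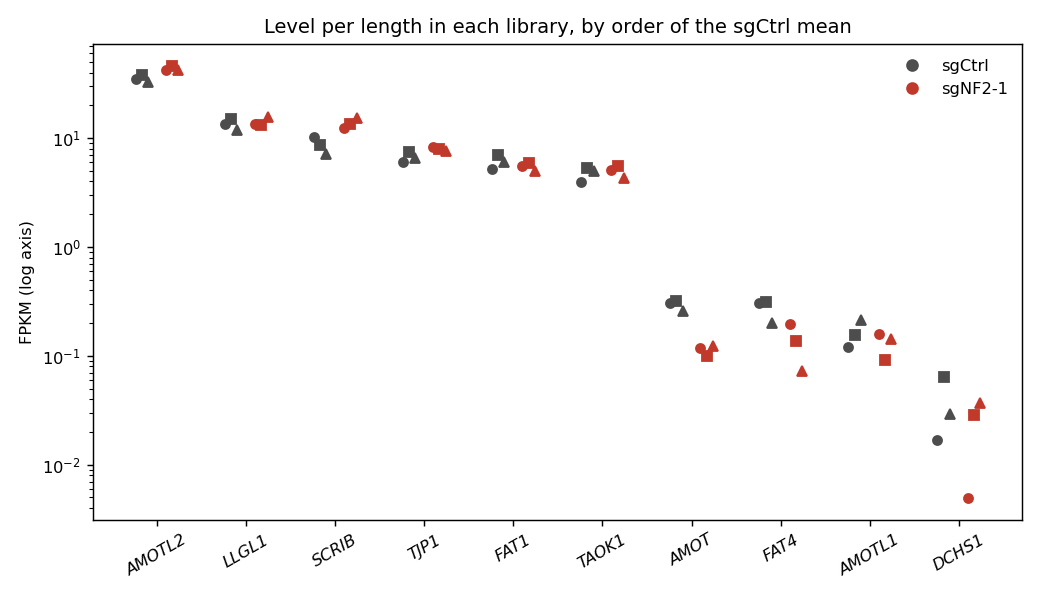
FPKM per library on a log axis for the 9 genes and *AMOTL2*, in the order of their sgCtrl means (grey sgCtrl, red sg*NF2*-1, symbols for replicates). Between *TAOK1* and *AMOT* the sgCtrl mean drops from 4.75 to 0.293 FPKM, and *AMOTL2* lies above all 9 genes.

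*AMOT* (ENSG00000126016, chromosome X, 112774503 to 112840815, minus strand) encodes angiomotin, a scaffold that binds YAP and F-actin. It had 43, 47 and 35 counts in sgCtrl replicates 1 to 3 and 19, 14 and 16 in the sg*NF2*-1 replicates. In CPM these were 2.73, 2.86 and 2.31 against 1.08, 0.907 and 1.12, so the highest sg*NF2*-1 library was below the lowest sgCtrl library. *AMOT* fell by 1.34 on the log2 scale (SE 0.327, 95% interval -2.01 to -0.66, adjusted p = 0.0024, edgeR), the largest change among the 8 tested genes. The mean was 39.4% of that in sgCtrl. Leaving out any 1 library kept the log2 fold change between -1.42 and -1.25, with an adjusted p of at most 0.0145.

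*AMOTL1* (ENSG00000166025, chromosome 11, 94706431 to 94876753), a paralog of *AMOT* at tight junctions, had 20, 27 and 34 counts in sgCtrl and 30, 15 and 22 in sg*NF2*-1. The groups overlapped, and *AMOTL1* was not called (log2 fold change -0.28, 95% interval -1.01 to 0.46, adjusted p = 0.58, edgeR). The estimate for *AMOT* lies outside this interval, but the 95% intervals of *AMOT* and *AMOTL1* overlap. A difference between the changes of these genes was not tested.

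The third angiomotin gene, *AMOTL2* (ENSG00000114019), which is a textbook target of YAP and TEAD, carried nearly all of the family's RNA in these cells. It had 3504, 3942 and 3167 counts in sgCtrl and 4734, 4550 and 3869 in sg*NF2*-1. As CPM it rose from 224 ± 15.8 to 279 ± 14.2 (SD, n = 3), a log2 fold change of 0.32 (SE 0.0818, adjusted p = 0.0039, edgeR), with no overlap between the groups. This change was below the fold limit of 0.5. Leaving out any 1 library kept the adjusted p at most at 0.0353 (edgeR). In limma the adjusted p was 0.036 on log2(FPKM + 1), 0.053 on log2(FPKM + 0.1) and 0.054 on log2(FPKM + 1) without a filter. *AMOTL2* made up 98.7% ± 0.110 of the summed FPKM of the 3 angiomotins in sgCtrl and 99.4% ± 0.133 in sg*NF2*-1 (SD, n = 3). The share of *AMOT* was 0.816% ± 0.0446 in sgCtrl and 0.262% ± 0.0402 in sg*NF2*-1. The summed level of the family was therefore higher in every sg*NF2*-1 library, at 42.5 to 46.6 FPKM against 33.5 to 38.6 FPKM in sgCtrl, while *AMOT* itself was lower in every one.

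Because both genes are measured in the same library, the ratio of their FPKM values does not depend on the scaling between libraries. The log2 ratio of *AMOT* to *AMOTL2* was -6.86, -6.90 and -7.01 in sgCtrl and -8.47, -8.85 and -8.42 in sg*NF2*-1. The difference of the means was -1.66, and every sg*NF2*-1 value was below every sgCtrl value (exact permutation p = 0.10). For *AMOTL1* to *AMOTL2*, the log2 ratios of -8.20, -7.94 and -7.29 in sgCtrl and -8.05, -8.99 and -8.20 in sg*NF2*-1 overlapped (exact permutation test, p = 0.20).

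Since *AMOT* and *AMOTL2* moved in opposite directions, their promoters were searched on both strands for CATTCC, the core of the TEAD motif, and for TGANTCA, the AP-1 motif, in the 250 bases before each RefSeq start (GRCh38.p14). The *AMOT* promoter is shown in full because *AMOT* had the largest change and neither motif occurs in this window. For *AMOTL2* the motif of its second start is shown in capitals with its flanks.
AMOT, chrX:112840832-112841081, minus strand: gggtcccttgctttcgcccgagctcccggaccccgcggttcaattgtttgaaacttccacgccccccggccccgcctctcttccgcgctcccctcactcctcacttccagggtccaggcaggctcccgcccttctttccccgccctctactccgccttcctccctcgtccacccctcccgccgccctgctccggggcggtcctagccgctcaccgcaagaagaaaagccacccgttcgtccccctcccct
AMOTL2, chr3:134374499-134374528, minus strand: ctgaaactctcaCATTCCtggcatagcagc
The motif of *AMOTL2* begins at -69 from that start, and the first *AMOTL2* start has none in its window. Entries were present for 6 of the 9 genes, with 11 starts in all: 1 each for *AMOT*, *AMOTL1* and *LLGL1*, 2 each for *FAT1* and *TAOK1*, and 4 for *TJP1*. None of these 11 windows held either motif. Over all 35116 windows of the same length, 11.9% held CATTCC and 6.57% held TGANTCA. The letters describe these windows only.

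*FAT1* (ENSG00000083857, chromosome 4, 186587783 to 186726722) encodes a giant atypical cadherin that can assemble the Hippo kinases at the membrane. It had 1411, 1974 and 1567 counts in sgCtrl and 1671, 1576 and 1216 in sg*NF2*-1. As CPM these were 89.5, 120 and 103 against 94.96, 102 and 85.4, so the groups overlapped. *FAT1* was not called (log2 fold change -0.15, 95% interval -0.35 to 0.05, adjusted p = 0.26, edgeR).

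*FAT4* (ENSG00000196159, chromosome 4, 125316399 to 125492932), the cadherin that binds Dachsous on the neighbouring cell, had 84, 89 and 53 counts in sgCtrl and 60, 37 and 18 in sg*NF2*-1. In CPM these were 5.33, 5.42 and 3.49 against 3.41, 2.40 and 1.26. The groups did not overlap, but sg*NF2*-1 replicate 1 at 3.41 CPM lay close to sgCtrl replicate 3 at 3.49 CPM. *FAT4* fell by 0.99 on the log2 scale (SE 0.284, 95% interval -1.57 to -0.40, adjusted p = 0.0087, edgeR), and its mean was 49.6% of that in sgCtrl. The call was lost without sg*NF2*-1 replicate 3, the lowest library, where the log2 fold change was -0.70 with an adjusted p of 0.058.

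*FAT1* held most of the RNA of the FAT and Dachsous genes, at 94.2% ± 1.05 of their summed FPKM in sgCtrl and 96.4% ± 0.801 in sg*NF2*-1 (SD, n = 3). *FAT4* held 4.27% ± 1.15 and 2.34% ± 0.985. The log2 ratio of *FAT4* to *FAT1* was -4.09, -4.49 and -4.91 in sgCtrl and -4.82, -5.44 and -6.10 in sg*NF2*-1, which overlapped between the groups (exact permutation test, p = 0.20).

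*DCHS1* (ENSG00000166341, chromosome 11, 6621323 to 6655854), the gene of the Dachsous ligand, had 3, 12 and 5 counts in sgCtrl and 1, 5 and 6 in sg*NF2*-1. The groups overlapped, and the gene did not pass the filter. In the edgeR fit without a filter its log2 fold change was -0.66 (SE 0.814, adjusted p = 0.62). The remaining family members were as low: *FAT2* had 1, 4 and 4 counts in sgCtrl and 14, 7 and 8 in sg*NF2*-1, *FAT3* had 5, 8 and 7 against 1, 0 and 2, and *DCHS2* had 14, 7 and 10 against 2, 0 and 1. For these 3 genes the groups did not overlap, and none passed the filter. The share of 45.3% without overlap covers tested genes only, so nothing is read from this separation at 0 to 14 counts. Without a filter, *DCHS2* had a log2 fold change of -3.21 (SE 0.941, adjusted p = 0.0057, edgeR), *FAT2* one of 1.65 (adjusted p = 0.15) and *FAT3* one of -2.57 (adjusted p = 0.10). *DCHS2* also passed the filter without sg*NF2*-1 replicate 3, where it was called lower (-3.28, adjusted p = 0.013, edgeR). It passed there only through sgCtrl, the group where it is high, so this call is no separate support. *DCHS2* was not called in limma on FPKM without a filter (adjusted p = 0.55). These fitted values depend on the prior count and are no bounds. *FJX1*, whose kinase phosphorylates cadherin domains of FAT and Dachsous proteins, was the other gene of this list that was tested. It rose from 55.4 ± 7.55 to 80.1 ± 5.21 CPM (SD, n = 3), with a log2 fold change of 0.53 (SE 0.0976, adjusted p = 0.00015, edgeR). Of the 7 genes in the list, 3 were tested, 1 was called higher and 1 lower.

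*TAOK1* (ENSG00000160551, chromosome 17, 29390464 to 29551904) encodes a kinase that phosphorylates the activation loop of MST. Its counts were 1125, 1554 and 1354 in sgCtrl and 1616, 1530 and 1099 in sg*NF2*-1. As CPM they were 71.4, 94.7 and 89.2 against 91.8, 99.1 and 77.2 and overlapped, and the gene was not called (log2 fold change 0.07, 95% interval -0.14 to 0.29, adjusted p = 0.63, edgeR). Its sign turned to -0.04 without sgCtrl replicate 1 and to -0.01 without sg*NF2*-1 replicate 2. The paralogs *TAOK2* (log2 fold change -0.0012, SE 0.0865, adjusted p = 0.99) and *TAOK3* (0.06, SE 0.0854, adjusted p = 0.63) were not called either, so 0 of 3 TAO kinase genes passed by edgeR. *TAOK1* gave 24.7% ± 3.16 of the summed FPKM of the 3 kinases in sgCtrl and 25.3% ± 2.80 in sg*NF2*-1 (SD, n = 3).

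*TJP1* (ENSG00000104067, chromosome 15, 29699367 to 29968865, minus strand) encodes ZO-1, which ties claudins and occludin to actin. It had 1129, 1458 and 1199 counts in sgCtrl and 1743, 1467 and 1305 in sg*NF2*-1. In CPM these were 71.6, 88.8 and 79.0 against 99.1, 95.05 and 91.6, with every sg*NF2*-1 library above every sgCtrl library. *TJP1* rose by a log2 fold change of 0.25 (SE 0.0893, 95% interval 0.07 to 0.44, adjusted p = 0.029, edgeR), the smallest called change of the 4. This call rested on single libraries and on the scaling: the adjusted p was 0.17 without sgCtrl replicate 1, 0.052 without sgCtrl replicate 3, 0.11 without sg*NF2*-1 replicate 1, 0.068 without sg*NF2*-1 replicate 2 and 0.058 with library totals in place of TMM, and 0.11 to 0.17 in the FPKM fits of limma. The direction was higher in all of these fits.

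*SCRIB* (ENSG00000180900, chromosome 8, 143790920 to 143815379) encodes the Scribble scaffold of the basolateral membrane. It had 1063, 936 and 712 counts in sgCtrl and 1426, 1367 and 1427 in sg*NF2*-1. In CPM these were 67.4, 57.0 and 46.9 against 81.0, 88.6 and 100.2, so the lowest sg*NF2*-1 library was above the highest sgCtrl library. *SCRIB* rose by a log2 fold change of 0.65 (SE 0.109, 95% interval 0.43 to 0.88, adjusted p = 4.3e-05, edgeR), a 1.57-fold difference. Leaving out any 1 library kept the log2 fold change between 0.53 and 0.79 and the adjusted p at most at 0.00082.

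*LLGL1* (ENSG00000131899, chromosome 17, 18225587 to 18244875), the mammalian Lethal giant larvae protein that works with Scribble and is opposed by atypical protein kinase C, had 1484, 1728 and 1268 counts in sgCtrl and 1668, 1430 and 1569 in sg*NF2*-1. As CPM these were 94.2, 105 and 83.6 against 94.8, 92.7 and 110.2. The groups overlapped, and the gene was not called (log2 fold change 0.07, 95% interval -0.12 to 0.27, adjusted p = 0.60, edgeR), with -0.01 without sgCtrl replicate 3 and also without sg*NF2*-1 replicate 3.

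Within the libraries, *SCRIB* thus came level with *LLGL1*. The log2 ratio of their FPKM values was -0.38, -0.78 and -0.73 in sgCtrl and -0.13, 0.04 and -0.04 in sg*NF2*-1. The difference of the means was 0.59, and every sg*NF2*-1 value was above every sgCtrl value (exact permutation p = 0.10). The share of *SCRIB* in the summed FPKM of *SCRIB*, the DLG genes and the LLGL genes was 24.1% ± 2.99 in sgCtrl and 33.6% ± 1.87 in sg*NF2*-1 (SD, n = 3).

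The replicates of 1 group differed from each other for several of the 9 genes. In deviation of log2 CPM from the group mean, *FAT1* was at -0.21, 0.21 and -0.0046 in sgCtrl and 0.02, 0.12 and -0.14 in sg*NF2*-1. The 1556 tested genes with over 10000 exonic bases had median deviations of -0.03, 0.07 and -0.03 in sgCtrl and of 0.04, 0.05 and -0.09 in sg*NF2*-1. *FAT1* was on the same side of 0 as these medians in 6 of 6 libraries, *FAT4*, *TAOK1* and *TJP1* in 5 each, and *AMOTL1* in 2. *SCRIB*, whose longest transcript has a GC content of 66.5%, was at 0.25, 0.01 and -0.27 and at -0.14, -0.02 and 0.16, where the fifth of genes with the highest GC content had medians of 0.07, -0.01 and -0.06 and of -0.06, -0.04 and 0.10. *SCRIB* and *LLGL1*, with a GC content of 60.6%, were on the same side as these medians in 5 of 6 libraries each. *DCHS1*, at 62.0%, did not pass the filter and was not compared. The median log2 fold change between the groups was -0.07 for the long genes and 0.05 for the GC-rich genes, and the part of length and composition in the values of single genes was not tested.

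Genes that overlap with these 9 can take or lose reads, since the library kit does not mark strand and the sources do not say how reads in 2 genes were handled. The table holds 16 genes that overlap with 1 of the 9, and 10 of them have 0 counts in every library: *MIR4329* in *AMOT*, *AP000943.3* and *AP002383.2* in *AMOTL1*, *RF00019* in *FAT4*, *AC091564.4* and *AC091564.5* in *DCHS1*, *MIR4523*, *RNU6-711P* and *RNU6-1034P* in *TAOK1*, and *MIR937* in *SCRIB*. No gene overlaps with *FAT1*. The others are *AC068025.1* and *AC068025.2* in *TAOK1* with at most 7 counts, *AC022613.3*, *AC022613.2* and *HMGN2P5* in *TJP1* with at most 7, 23 and 47 counts, and *FLII* with 3562 to 4582 counts, whose end overlaps with that of *LLGL1* by 40 bases on the opposite strand. Of the exonic bases, 0% of *FAT1*, *FAT4* and *TJP1*, 0.291% of *SCRIB*, 0.603% of *LLGL1*, 0.835% of *AMOT*, 1.02% of *TAOK1*, 4.94% of *AMOTL1* and 9.36% of *DCHS1* are also exonic in another GENCODE 29 gene. Overlap was larger for *CDC42*, a gene of the Par list, which shares 57.1% of its exonic bases with *AL031281.2* on the same strand and had 4 to 19 counts. The counts of *CDC42* were not read as a level.

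The 9 lists of related genes (angiomotins, FAT and Dachsous cadherins, TAO kinases, tight junction, Scribble, Crumbs and Par modules, adherens junction, and angiomotin turnover) held 82 genes, of which 65 were tested. Of these, 17 were called higher (26.2%) and 14 lower (21.5%), against 17.7% and 16.6% of all tested genes, and the median log2 fold change was -0.0012. The lists were chosen with earlier results of these data known, so the difference from all tested genes is not read as an excess. Outside the 9 genes the counts were 15 higher and 12 lower of 57. Single lists held 3 to 12 tested genes, and their counts are to be read beside the same shares of all tested genes.

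In the tight junction list, 11 of 16 genes were tested, with 6 higher (54.5%) and 2 lower (18.2%), against 17.7% and 16.6% of all tested genes. Occludin, *OCLN*, rose from 0.741 ± 0.0629 to 3.64 ± 1.00 CPM (SD, n = 3), a log2 fold change of 2.29 (SE 0.334, adjusted p = 7.7e-06, edgeR). Tricellulin, *MARVELD2*, rose by a log2 fold change of 1.10 (adjusted p = 0.00076), and the claudin gene *CLDN11*, which shares 18.3% of its exonic bases with another gene, by 1.00 (adjusted p = 7.1e-10). *MAGI3*, a scaffold with PDZ domains, fell by 0.85 on the log2 scale (adjusted p = 7.5e-05), and *CLDN15*, a cation pore claudin, fell by 0.45 (adjusted p = 0.0020). *TJP1* therefore stood in a list in which genes of different junction proteins moved both ways.

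In the Scribble list, all 11 genes were tested, with 2 higher (18.2%) and 1 lower (9.09%), against 17.7% and 16.6% of all tested genes. Besides *SCRIB*, *ERBIN*, a related scaffold with leucine-rich repeats, rose by a log2 fold change of 0.29 (SE 0.0916, adjusted p = 0.015, edgeR). *DLG4*, a discs large homologue best known from synapses, fell by 0.72 on the log2 scale (SE 0.145, adjusted p = 0.00043), while *DLG1* was at -0.04 and *DLG5* at -0.10 and neither was called.

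Of the apical modules, the Par list had calls in both directions and the Crumbs list had them lower. In the Crumbs list, 4 of 9 genes were tested and 2 were lower by edgeR: *MPP5*, the PALS1 adaptor, with a log2 fold change of -0.34 (adjusted p = 0.017), and *MPDZ*, a scaffold with multiple PDZ domains, with -0.57 (adjusted p = 0.021). *PATJ* at 0.38 (adjusted p = 0.051, edgeR) and *LIN7C* at 0.18 (adjusted p = 0.18) pointed higher and were not called. In the Par list, all 10 genes were tested, and 3 were higher and 2 lower. *PARD3B* rose by 1.11, *PARD6A* by 0.67 and *PARD3* by 0.21 in log2 fold change (adjusted p of 0.0073, 0.012 and 0.037). *PARD6B* fell by 1.01 and *PRKCI*, the atypical protein kinase C that phosphorylates LLGL1, fell by 0.31 on the log2 scale (adjusted p of 0.0067 and 0.017).

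In the adherens junction list, 12 of 15 genes were tested, with 2 higher and 4 lower. *AJUBA*, a LIM protein that inhibits LATS at junctions, rose by a log2 fold change of 0.87 (SE 0.0845, adjusted p = 1.6e-08, edgeR), and *PTPN14*, a phosphatase that binds YAP, by 0.33 (adjusted p = 0.0059). *CDH11*, a mesenchymal cadherin, fell from 3.92 ± 0.900 to 0.533 ± 0.344 CPM (SD, n = 3), a log2 fold change of -2.83 by edgeR (SE 0.386, adjusted p = 3.0e-06). It passed the filter through its level in sgCtrl, and its very low level in sg*NF2*-1 limits the precision of this change. *CTNNB1* (beta-catenin) fell by 0.49 and *CDH2* (N-cadherin) by 0.32 on the log2 scale (adjusted p of 4.7e-05 and 0.0037). *CDH1* (E-cadherin) had 0 counts in every library.

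The angiomotin turnover list holds the tankyrases, which mark angiomotins for degradation, and the NEDD4 family ubiquitin ligases that bind angiomotins. All 8 genes were tested, and 2 were higher and 1 lower. *NEDD4L* rose from 85.3 ± 2.59 to 138 ± 13.9 CPM (SD, n = 3; log2 fold change 0.69, SE 0.0869, adjusted p = 8.4e-07, edgeR) and *NEDD4* by a log2 fold change of 0.35 (adjusted p = 0.0030). *TNKS2*, a tankyrase, fell by 0.36 on the log2 scale (adjusted p = 0.0039). These are RNA levels, and the amount of angiomotin protein is not analysed here.

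The calls differed in how far they rested on 1 library. Without each library in turn, *AMOT* and *SCRIB* passed the adjusted threshold in 6 of 6 fits, *FAT4* in 5 and *TJP1* in 2. Their directions were the same in all 6 fits.

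**Figure D3:**
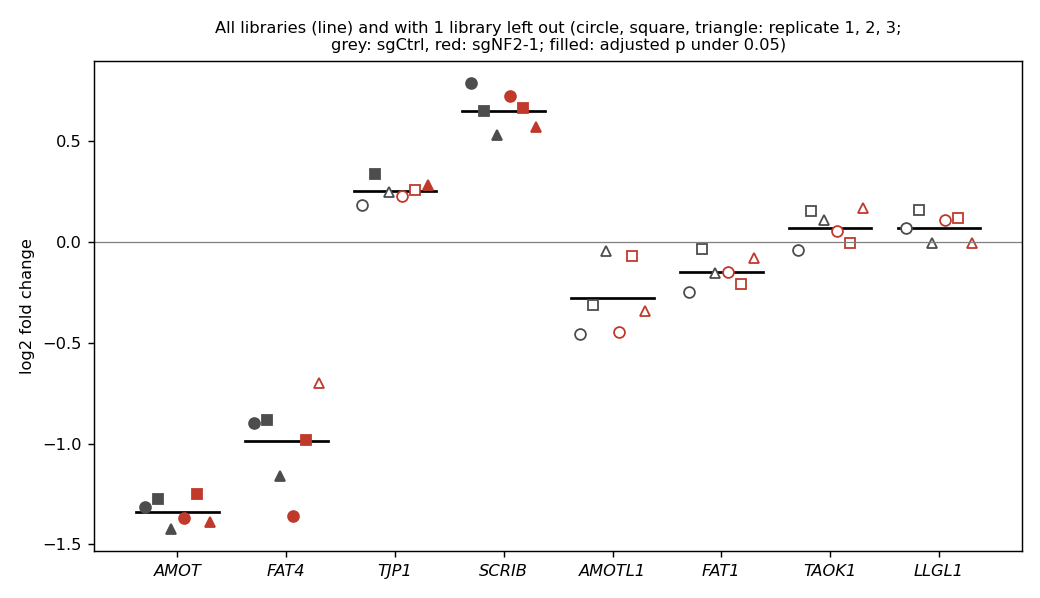
Log2 fold change with all 6 libraries (line) and with each library left out (symbols, filled where the adjusted p is under 0.05). *TJP1* is filled only without sgCtrl replicate 2 or sg*NF2*-1 replicate 3, *FAT4* is open only without sg*NF2*-1 replicate 3 at -0.70, and *TAOK1* and *LLGL1* lie on both sides of 0.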

How the data were processed

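RNA from 3 sgCtrl and 3 sg*NF2*-1 libraries was sequenced as paired-end reads on a NovaSeq platform. The authors deposited raw counts per gene, without normalization, and FPKM values. In every library, the deposited FPKM equalled the count divided by the gene length and by 1 depth per library, within rounding, for genes with at least 100 counts. The submitters' processing notes name HISAT2, StringTie 1.3.3b, featureCounts 1.5.0-p3 and hg38, and the paper names DESeq2. Strand use in counting is not given in the sources used here. Groups and replicate numbers came from the sample titles.

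The counts were filtered with filterByExpr (minimum count 10, minimum total 15), normalized by TMM, fitted by group with edgeR 4.0.16 (quasi-likelihood, R 4.3.3) and adjusted by the Benjamini-Hochberg method over 14179 genes. The 95% intervals use the total degrees of freedom of this fit, prior and residual together. FPKM was tested as log2(FPKM + 1) with limma 3.58.1 for genes with a mean of at least 0.5, where fold changes of low genes are understated. The fit was repeated with DESeq2 1.42.0, with DESeq2 scaling or plain totals in edgeR, without a filter or with 10 counts required of each library, with the replicate number as a block, and without each library, and FPKM also with a pseudocount of 0.1 or without a filter. The procedures were tested on simulated counts. Single genes were compared by exact permutation. Library pairs differed by more than counting noise (chi-square per degree of freedom 5.17 to 12.6 within groups).

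The genes and lists were chosen with earlier results of these data known. The genes named are the 9, *NF2*, *AMOTL2*, *FAT2*, *FAT3*, *DCHS2*, overlapping genes, and up to 3 called genes per direction and list. Other genes (*TAOK2*, *TAOK3*, *DLG1*, *DLG5*, *PATJ*, *LIN7C*, *CDH1*, *CDC42*, markers) were named after their values were seen. A result on 1 gene of the lists is not reported here. Sequences are from RefSeq (GRCh38.p14), and the guide is from the supplement.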

Additional observations from a re-analysis of the deposited data

How the results depend on the processing

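Among the 9 genes, the calls were 2 higher and 2 lower. With library totals in edgeR 1 was called higher. In limma on log2(FPKM + 1) and on log2(FPKM + 0.1), where *AMOT*, *FAT4*, *AMOTL1* and *DCHS1* were below the filter, 1 was called higher and 0 lower, and 0 lower also with the fold limit. Without a filter in limma the counts were 0 higher and 1 lower, and 0 lower with the fold limit, where *SCRIB* had an adjusted p of 0.057 and *FAT4* one of 0.17. Leaving out 1 library gave 1 to 2 called higher and 1 to 2 called lower. DESeq2, its size factors, no filter in edgeR and at least 10 counts in every library changed none of these counts. *AMOT* passed in all 13 alternatives that gave it a value (adjusted p at most 0.020), *FAT4* in 11 of 13, *SCRIB* in 14 of 15 and *TJP1* in 7 of 15. Without each library in turn, *TAOK1*, which was not called, ranged from -0.040 (without sgCtrl replicate 1) to 0.17, and *LLGL1* from -0.0062 (without sgCtrl replicate 3) to 0.16. The cause was not tested. Same-numbered libraries did not deviate together (correlations -0.03, 0.06 and 0.05), and with the replicate block 2 were called higher and 2 lower, with 5199 calls over all genes against 4866 without it. Counts of 14 to 89 for *AMOT*, *AMOTL1* and *FAT4* limit their precision, and *DCHS1*, with 1 to 12 counts, was fitted without a filter alone (log2 fold change -0.66, SE 0.814 in edgeR, -0.019 in limma on FPKM).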
